A study of Triticum aestivum with 24 samples.

Results

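Starch is built in green tissue from ADP-glucose by starch synthases, which lengthen glucan chains, and by starch branching enzymes, which cut chains and rejoin them as branches. The 5 starch synthase and branching enzyme genes described here are every gene of these families among the 26 selected wheat genes whose deposited values were used. They were chosen by name, with earlier results of these data known. The 3 synthases are GBSSII, SSIIc and SSIV, and the 2 branching enzymes are Sbe2 and sbeiia. Granule-bound synthases make amylose, the mostly linear glucan, and the GBSSII form is the one typical of leaves and other non-storage tissue of cereals. Soluble synthases such as SSIIc extend the chains of amylopectin, SSIV is known from Arabidopsis for its part in starting new granules, and branching enzymes give amylopectin its branches. In leaves the starch made by day is broken down again at night, whereas grass stems around grain fill hold soluble carbohydrate that is later moved to the grain.

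The study compared the semi-dwarf allele *Rht-B1b* with its tall, wild-type form *Rht-B1a* in near isogenic lines of the hard red spring wheat Fortuna. *Rht-B1* encodes a DELLA protein, a repressor of gibberellin-driven growth. RNA was sequenced from flag leaves and from stem tissue of the first to second internode at 14 days past anthesis, giving 4 groups of 3 samples: *Rht-B1b* leaves, *Rht-B1a* leaves, *Rht-B1b* stems and *Rht-B1a* stems. The *Rht-B1b* line was made by repeated backcrossing of the donor Hi-Line to Fortuna followed by selfing, so donor sequence near the locus and the allele itself cannot be told apart, and each allele is represented by 1 line. Fortuna supplied the background of both lines, and both were grown in the field. A replicate is described in the study's methods both as a composite of plants from a row and as a single leaf or internode.

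Values are RPKM, reads normalised to gene length and to the reads mapped, which the authors scaled so that actin had the same value of 1432.5 RPKM in all 12 samples. RPKM is per length, so levels of different genes can be set side by side. Differences are given as log2 fold changes from limma on log2(RPKM + 1), two-sided, with Benjamini-Hochberg adjustment over the 25 genes other than actin and a threshold of 0.05. Values of a group are listed in the order of the samples' pair numbers, and pairs of lines were taken from consecutive sample numbers. Read depth is unknown, so precision rests on the spread between the 3 samples of a group. Reads were counted only if identical to a listed sequence. Wheat is hexaploid, and related copies, such as Sbe2 and sbeiia or the copies of 1 gene in different genomes, may share reads, so the values of single members are uncertain to that extent.

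Tissue labels were checked with rbcS and SUT1D. The summed level of the 3 sequences of rbcS, the small subunit of RuBisCO, lay between 1.43e+06 and 3.58e+06 RPKM in leaves and between 129519 and 235133 RPKM in stems. SUT1D, a sucrose transporter, lay between 11596 and 18250.2 RPKM in leaves and between 714 and 1265 RPKM in stems. No leaf sample overlapped a stem sample in either measure, and stems held both RNAs at levels well above zero. Rht-B1 itself averaged 2407 ± 525 RPKM in *Rht-B1b* leaves and 1116 ± 310.5 RPKM in *Rht-B1a* leaves, and 4512 ± 350.5 RPKM in *Rht-B1b* stems and 1823 ± 86.3 RPKM in *Rht-B1a* stems (SD, n = 3 each). The leaf samples numbered 1 stood apart from the others of their line: they held the highest value for 5 of 5 members in both lines, and for 19 of 25 genes in *Rht-B1b* and 23 of 25 in *Rht-B1a*. In *Rht-B1b* stems, sample 3 held the highest value for 4 of 5 members and for 15 of 25 genes.

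The members kept a nearly fixed order of abundance. In 6 of 6 leaf samples the order of RPKM levels was sbeiia, GBSSII, SSIV, SSIIc and Sbe2, and the same order was found in 3 of 6 stem samples. In the other 3 stem samples SSIIc and Sbe2 changed places, so these neighbours did not separate in stems. sbeiia exceeded GBSSII, GBSSII exceeded SSIV and SSIV exceeded SSIIc in 12 of 12 samples. The branching enzyme sbeiia and the granule-bound synthase GBSSII therefore held most of the summed RNA of the 5 genes, with means over the 12 samples of 45.8% ± 4.20 and 28.0% ± 4.34 (SD, n = 12). SSIV took 13.4% ± 3.96, SSIIc 7.03% ± 1.10 and Sbe2 5.76% ± 1.13 of the sum (SD, n = 12).

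**Figure D1:**
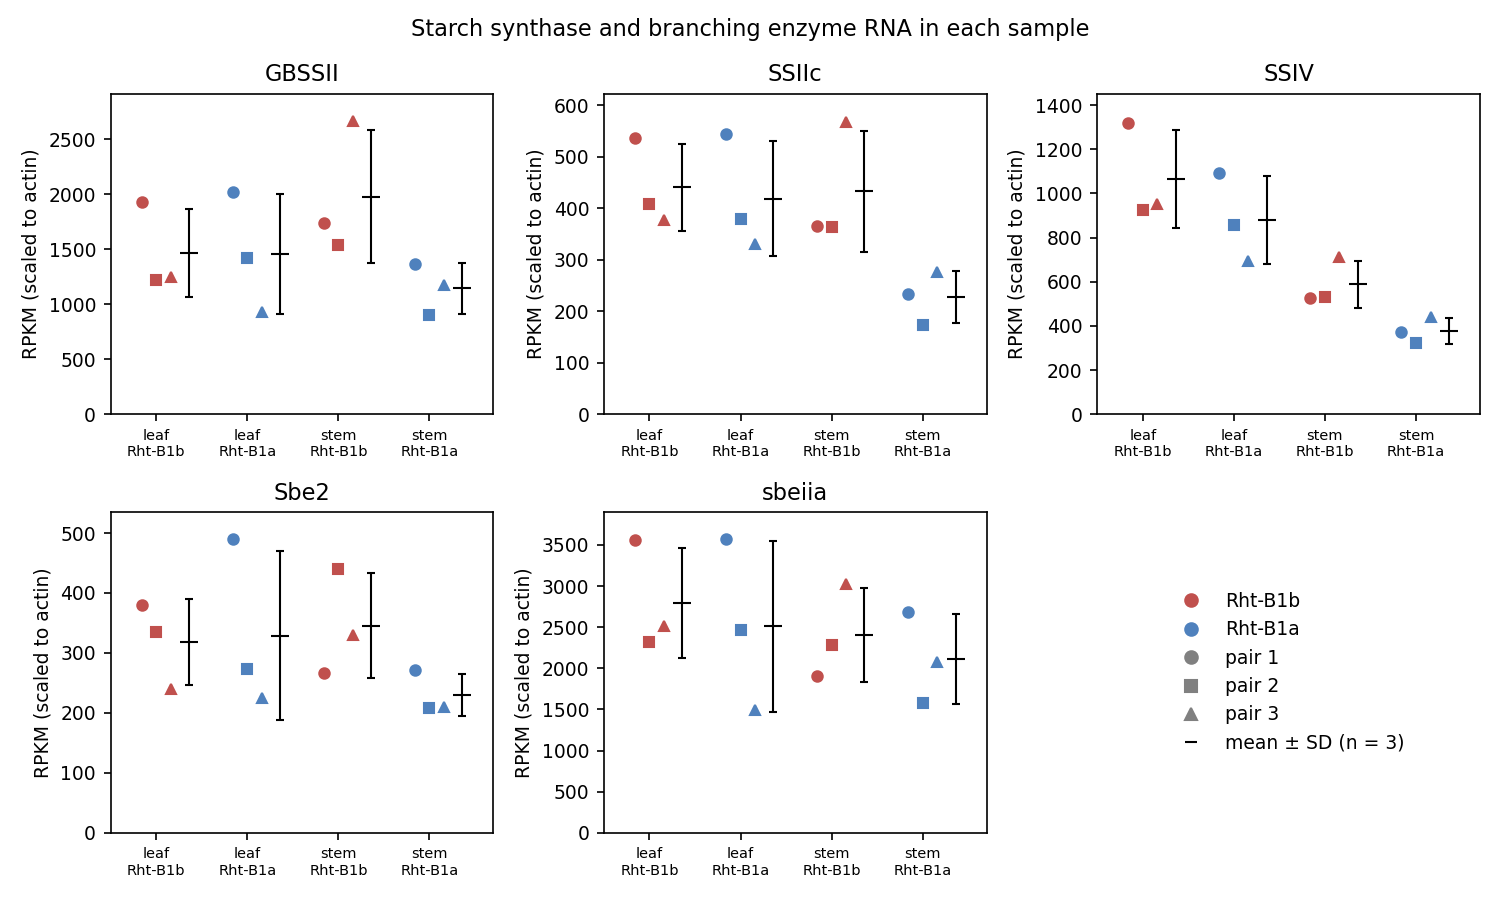
RPKM of each starch synthase and branching enzyme gene in every sample, scaled to actin by the authors, for *Rht-B1b* and *Rht-B1a* leaves and stems, with points for samples and bars for the mean ± SD (n = 3). The *Rht-B1b* stem points lie above the *Rht-B1a* stem points for GBSSII, SSIIc and SSIV and overlap them for Sbe2 and sbeiia, and the leaf points of the lines overlap in all 5 panels.

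In stems, the RNA levels of SSIIc and SSIV were higher in the semi-dwarf line, and GBSSII, Sbe2 and sbeiia did not pass the test. SSIIc rose 1.90-fold and SSIV 1.56-fold by the ratio of means. GBSSII was higher in every *Rht-B1b* stem sample but missed the threshold, which it passed in 4 of 10 alternatives. The counts of members called higher and lower in *Rht-B1b* stems were 2 of 5 and 0 of 5, and 32% of the 25 genes tested were called, all of them higher. At an unadjusted p under 0.05, 3 of 5 members and 52% of all genes passed, so both shares of the members were near those of all genes. The median log2 fold change was 0.64 over the members and 0.56 over all genes tested.

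SSIIc, the soluble synthase, had 366, 364 and 568 RPKM in *Rht-B1b* stems, against 234, 174 and 275 RPKM in *Rht-B1a* stems. The lowest *Rht-B1b* stem was above the highest *Rht-B1a* stem. Its log2 fold change was 0.91 (SE, the standard error, 0.14, 95% interval 0.52 to 1.31, limma adjusted p = 0.0241).

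SSIV, the synthase of granule initiation, had 525, 530.1 and 712 RPKM in *Rht-B1b* stems, against 370.4, 324 and 438 RPKM in *Rht-B1a* stems. These groups did not overlap either. The log2 fold change of SSIV was 0.64 (SE 0.10, 95% interval 0.34 to 0.94, limma adjusted p = 0.0241).

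GBSSII, the granule-bound synthase, had 1739, 1534 and 2662 RPKM in *Rht-B1b* stems, against 1362, 902 and 1174 RPKM in *Rht-B1a* stems. The groups were separate, with the third *Rht-B1b* sample far above the other two of its line. The log2 fold change of 0.77 had a SE of 0.20 and a 95% interval of 0.18 to 1.35 (limma adjusted p = 0.0572). The groups of 3 of 5 members thus did not overlap, and among all genes tested 60% were higher in *Rht-B1b* stems without overlap.

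Sbe2, the less abundant branching enzyme, had 266, 439 and 330.4 RPKM in *Rht-B1b* stems, against 271, 208 and 211 RPKM in *Rht-B1a* stems. The first *Rht-B1b* sample was below the highest *Rht-B1a* sample, so the groups overlapped. Its log2 fold change was 0.56 (SE 0.26, 95% interval -0.18 to 1.31, limma adjusted p = 0.158).

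For sbeiia, the more abundant branching enzyme, *Rht-B1b* stems had 1906, 2283 and 3029 RPKM, against 2679, 1581 and 2075 RPKM in *Rht-B1a* stems. The groups overlapped over most of their range. The log2 fold change of sbeiia was 0.19 (SE 0.27, 95% interval -0.60 to 0.99, limma adjusted p = 0.555). This interval contains both zero and the values found for SSIIc and SSIV. Without pair 1 the log2 fold change of sbeiia was 0.54 (limma adjusted p = 0.0581) and that of Sbe2 0.86 (limma adjusted p = 0.0952). Without pair 2 they were 0.027 and 0.31, and without pair 3 they were 0.019 and 0.52.

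Rises in *Rht-B1b* stems were not limited to the members, to their pathway or to genes of leaf tissue. Of all genes tested, 22 of 25 had stem log2 fold changes above 0, among them gid1, of a gibberellin receptor (1.44), and Rht-B1 (1.31). The gene agp2, of ADP-glucose pyrophosphorylase, the enzyme that supplies the synthases, had 3485, 2660 and 5209 RPKM in *Rht-B1b* stems, against 2040.1, 1193 and 1738 RPKM in *Rht-B1a* stems. It rose by 1.17 on the log2 scale (SE 0.20, limma adjusted p = 0.0241), whereas the pyrophosphorylase small subunit had a log2 fold change of 0.43 (SE 0.24, limma adjusted p = 0.211). Of these 2 genes 1 was therefore called higher and 0 lower. Summed rbcS lay between 185771 and 235133 RPKM in *Rht-B1b* stems and between 129519 and 138056 RPKM in *Rht-B1a* stems. Each of the 3 rbcS sequences was higher in *Rht-B1b* stems without overlap, while SUT1D lay between 764 and 952 RPKM in *Rht-B1b* stems and between 714 and 1265 RPKM in *Rht-B1a* stems. The part of rbcS-rich cells in the stem values was not tested, and in bulk tissue fewer cells of a type and less RNA per cell cannot be told apart.

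The stem calls of SSIIc and SSIV were lost under other scalings and without any 1 pair of samples. One such scale was the geometric mean over 22 genes, which are all but the rbcS sequences and Rht-B1. It holds actin, the members and other genes higher in *Rht-B1b* stems, so a rise that these genes share is divided out. Conversely, a difference in actin between the lines would shift every gene scaled to it. The paper describes actin as similarly expressed in both lines, which was not tested here. Scaled to actin, all genes in stems had a median log2 fold change of 0.56. Scaled to the median gene, SSIIc had 0.62 (limma adjusted p = 0.0524) and SSIV 0.34 (adjusted p = 0.304). When each sample was divided by its geometric mean over 22 genes, all genes in stems had a median log2 fold change of 0.11, SSIIc had 0.46 (limma adjusted p = 0.0753), SSIV 0.18 (adjusted p = 0.412) and sbeiia -0.26. Without any 1 pair, SSIIc had log2 fold changes between 0.84 and 1.05 (limma adjusted p between 0.0581 and 0.0872) and SSIV between 0.60 and 0.70 (adjusted p between 0.0581 and 0.200). These fits held 4 samples each, and the fold changes stayed close to those from all stem samples.

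**Figure D2:**
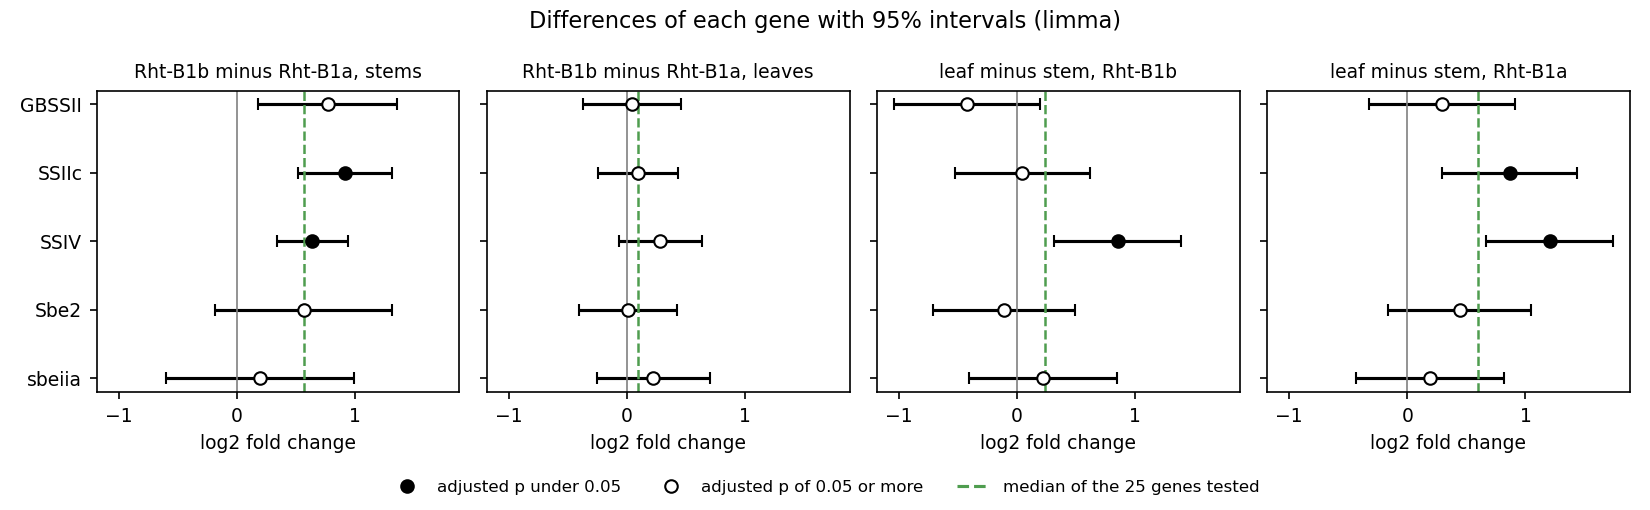
Log2 fold changes of the 5 genes with 95% intervals from limma, in 4 panels: *Rht-B1b* minus *Rht-B1a* in stems and in leaves, and leaf minus stem in each line, with filled points for an adjusted p under 0.05 and a dashed line at the median of the 25 genes tested. Filled points are SSIIc and SSIV in stems, none in leaves, SSIV between tissues in *Rht-B1b*, and SSIIc and SSIV between tissues in *Rht-B1a*.

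In flag leaves, no difference between the lines passed the test for any of the 5 genes, and all 5 overlapped between lines. Overlap was usual there: of all genes tested, 4% were higher in *Rht-B1b* leaves without overlap and 0% lower. The count was 0 of 5 with limma after adjustment, where 4% of all genes tested were called, and 0 of 5 at an unadjusted p under 0.05, where 12% of all genes passed. The median log2 fold change was 0.092 both over the members and over all genes.

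SSIIc had 537, 409 and 378 RPKM in *Rht-B1b* leaves, against 545, 379.9 and 331 RPKM in *Rht-B1a* leaves. The lines ran side by side, with the first sample highest in each. The log2 fold change was 0.092 (SE 0.14, 95% interval -0.25 to 0.43, limma adjusted p = 0.839).

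SSIV had 1320.3, 924 and 953 RPKM in *Rht-B1b* leaves, against 1092, 855 and 694 RPKM in *Rht-B1a* leaves. The *Rht-B1b* sample was the higher one in 3 of 3 pairs, although the groups overlapped. Its log2 fold change was 0.28 (SE 0.15, 95% interval -0.072 to 0.63, limma adjusted p = 0.280).

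GBSSII had 1932, 1217 and 1248 RPKM in *Rht-B1b* leaves, against 2024, 1417 and 929 RPKM in *Rht-B1a* leaves. The spread within each line was wider than the gap between the line means, and the log2 fold change was 0.046 (SE 0.17, 95% interval -0.37 to 0.46, limma adjusted p = 0.938).

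The branching enzymes overlapped between lines in leaves as well. Sbe2 had 380.4, 335 and 240.4 RPKM in *Rht-B1b* leaves, against 490, 272 and 225 RPKM in *Rht-B1a* leaves, a log2 fold change of 0.010 (SE 0.17, limma adjusted p = 0.957). sbeiia had 3563, 2322 and 2509.8 RPKM in *Rht-B1b* leaves, against 3575, 2463 and 1488 RPKM in *Rht-B1a* leaves, a log2 fold change of 0.22 (SE 0.20, limma adjusted p = 0.564). The third *Rht-B1a* leaf sample was the lowest of its line for 5 of 5 members. This was not particular to them: its geometric mean over 22 genes was 1205 RPKM, against 1896 and 1305 RPKM in the other samples of that group. The pyrophosphorylase genes had log2 fold changes of -0.26 for agp2 (limma adjusted p = 0.296) and -0.66 for the small subunit (limma adjusted p = 0.280).

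Whether the line effect differed between tissues was tested directly, as the effect in stems minus that in leaves. SSIIc was the 1 member of 5 to pass, with a log2 difference of 0.82 (SE 0.23, 95% interval 0.32 to 1.33, limma adjusted p = 0.0355), and 12% of all genes tested passed. GBSSII had a difference of 0.72 (SE 0.28, limma adjusted p = 0.0930), Sbe2 0.55 (adjusted p = 0.208) and SSIV 0.36 (adjusted p = 0.235). For sbeiia the difference was -0.027 (95% interval -0.76 to 0.71, limma adjusted p = 0.938). The median was 0.55 over the members and 0.36 over all genes. Beside them agp2 had 1.43 (limma adjusted p = 0.00413) and the small subunit 1.09 (limma adjusted p = 0.0646). The SSIIc call was lost without the pairing of samples (limma adjusted p = 0.314), after division by that geometric mean (0.43 on the log2 scale, adjusted p = 0.139) or to the median gene (0.71, adjusted p = 0.0667), and without any 1 pair number.

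Between tissues, SSIV was the member that separated leaves from stems in both lines. Its mean level was 1066 ± 221 RPKM in *Rht-B1b* leaves and 589 ± 107 RPKM in *Rht-B1b* stems, and 880.2 ± 200.0 RPKM in *Rht-B1a* leaves and 378 ± 57.6 RPKM in *Rht-B1a* stems (SD, n = 3 each). Within each line the lowest leaf was above the highest stem. The log2 fold change was 0.85 in *Rht-B1b* (SE 0.26, limma adjusted p = 0.00497) and 1.21 in *Rht-B1a* (SE 0.26, limma adjusted p = 0.000189). SSIV was higher in leaves under 12 of 12 alternatives in each line, with log2 fold changes between 0.45 and 1.26 in *Rht-B1b* and between 0.41 and 1.51 in *Rht-B1a*, and passed the test in each.

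SSIIc was higher in leaves in *Rht-B1a*, with 419 ± 112 RPKM in leaves and 228 ± 50.9 RPKM in stems (SD, n = 3 each) and no overlap. The log2 fold change was 0.87 there (SE 0.28, limma adjusted p = 0.00678). In *Rht-B1b* its levels were 441 ± 84.6 RPKM in leaves and 433 ± 117 RPKM in stems (SD, n = 3 each), a log2 fold change of 0.044 (SE 0.28, 95% interval -0.52 to 0.61, limma adjusted p = 0.911). The change between these tissue effects is the difference of line effects tested above. With division by that geometric mean, SSIIc had a log2 fold change of 0.071 between the tissues of *Rht-B1a* (limma adjusted p = 0.673).

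GBSSII and the branching enzymes were not called between tissues in either line. GBSSII averaged 1465 ± 404 RPKM in *Rht-B1b* leaves and 1978 ± 601 RPKM in *Rht-B1b* stems, and 1457 ± 548 RPKM in *Rht-B1a* leaves and 1146 ± 232 RPKM in *Rht-B1a* stems (SD, n = 3 each). Its log2 fold changes of -0.42 in *Rht-B1b* and 0.29 in *Rht-B1a* had limma adjusted p = 0.214 and 0.382. Those of sbeiia were 0.22 and 0.19 (limma adjusted p = 0.546 and 0.582), and those of Sbe2 -0.11 and 0.44 (limma adjusted p = 0.772 and 0.170), in the same order of lines. With division by that geometric mean, GBSSII was called lower in leaves in *Rht-B1b* (-0.83, limma adjusted p = 0.000679) and in *Rht-B1a* (-0.50, limma adjusted p = 0.0197). Scaled to the median gene it was -0.015 in *Rht-B1b* (limma adjusted p = 0.946) and was called higher in *Rht-B1a* leaves (0.60, limma adjusted p = 0.0107). In *Rht-B1a* its direction between tissues thus depends on the scaling. In *Rht-B1b* it was lower in leaves under 12 of 12 alternatives, of which 1 passed the test.

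In all, 1 of 5 members in *Rht-B1b* and 2 of 5 in *Rht-B1a* were called higher in leaves, and 0 lower, against 72% of all genes called in *Rht-B1b* (44% higher and 28% lower) and 76% in *Rht-B1a* (52% higher and 24% lower). The groups of the called members did not overlap, which held for 48% of all genes in the higher direction in *Rht-B1b* and 56% in *Rht-B1a*. Median log2 fold changes over the members were 0.044 in *Rht-B1b* and 0.44 in *Rht-B1a*, with 0.24 and 0.59 over all genes. By comparison agp2 fell by 3.60 on the log2 scale in *Rht-B1b* leaves relative to stems (limma adjusted p = 2.09e-11) and had a log2 fold change of -2.17 in *Rht-B1a* (limma adjusted p = 1.87e-07). Its level was below those of GBSSII and SSIV in 6 of 6 leaf samples and above both in 6 of 6 stem samples.

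Ratios of members within a sample do not depend on the scaling to actin, since a factor common to the sample cancels. For 5 ratios and 4 comparisons, 20 exact permutation tests of the mean log2 ratio were run, two-sided, with Benjamini-Hochberg adjustment over the 20. The exact test of a line effect within a tissue had 3 samples against 3 and could not go below p = 0.1, while permutation over both tissues could reach p = 0.005. For the difference of line effects, line labels were permuted within each tissue. That p refers to no line effect in either tissue, so it does not test whether the effects are equal. After adjustment 4 of 20 passed, 3 between tissues and 1 for the difference of line effects. Leaf and stem samples may come from the same plants or rows, but which belong together is not named, so every test over both tissues, limma included, treats them as independent. With the plant as the unit, an exact test of the difference of line effects would have 3 against 3 and could not go below p = 0.1.

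Within the synthases, the balance shifted toward SSIV in leaves. The ratio of SSIV to GBSSII was 0.683 ± 0.0932 in leaves and 0.320 ± 0.0457 in stems (SD, n = 6 each), 2.14-fold apart on the log scale. The ratio of SSIV to SSIIc was 2.27 ± 0.200 in leaves and 1.53 ± 0.203 in stems, 1.49-fold apart, and that of SSIIc to GBSSII was 0.302 ± 0.0372 in leaves and 0.210 ± 0.0248 in stems, 1.44-fold apart. In each of these 3 ratios the lowest leaf was above the highest stem, and the exact permutation p was 0.005, the smallest possible (adjusted p = 0.025). Each of these log2 ratios follows from the others, so they are not 3 independent results. Leaves and stems did not overlap in 73.7% of the 300 ratios that can be formed from pairs of the 25 genes, and 78.7% reached the same p, so such separation was common in these samples.

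The ratio of SSIV to SSIIc differed between lines in opposite directions in stems and leaves. In stems it was 1.43, 1.46 and 1.25 in *Rht-B1b*, against 1.58, 1.86 and 1.59 in *Rht-B1a*. In leaves it was 2.46, 2.26 and 2.52 in *Rht-B1b*, against 2.00, 2.25 and 2.10 in *Rht-B1a*. The lines did not overlap in either tissue, *Rht-B1b* being lower in stems and higher in leaves, although in leaves the gap was from 2.26 in the lowest *Rht-B1b* sample to 2.25 in the highest *Rht-B1a* sample. The log2 difference between lines was -0.28 in stems and 0.19 in leaves, each with an exact permutation p of 0.1 (adjusted p = 0.222). The difference of these line effects (stem minus leaf, log2) was -0.47, with an exact permutation p of 0.005, the smallest possible (adjusted p = 0.025). Among the 300 gene pairs 2% reached this p, and 2% had lines that were separate in both tissues and in opposite directions. The smallest p of this permutation is reached only with such separation, so it adds no evidence beyond it.

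The synthases together, set against the branching enzymes together, gave ratios of summed RPKM of 1.21, 0.892 and 1.17 in *Rht-B1b* stems, against 0.667, 0.782 and 0.826 in *Rht-B1a* stems. The groups did not overlap, and the *Rht-B1b* ratio was 1.43-fold higher on the log scale (exact permutation p = 0.1, the smallest possible, adjusted p = 0.222). In leaves the ratios were 0.961, 0.959 and 0.938 in *Rht-B1b*, against 0.900, 0.970 and 1.14 in *Rht-B1a* (log2 difference -0.068, exact permutation p = 0.7, adjusted p = 0.778). The difference of the line effects was 0.59 on the log2 scale (exact permutation p = 0.035) and missed the threshold after adjustment (adjusted p = 0.14). Between tissues the ratio averaged 0.978 ± 0.0835 in leaves and 0.925 ± 0.220 in stems (SD, n = 6 each; exact permutation p = 0.44, adjusted p = 0.587). Lines were separate in stems for 39% of the 300 gene pairs and in leaves for 16%.

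**Figure D3:**
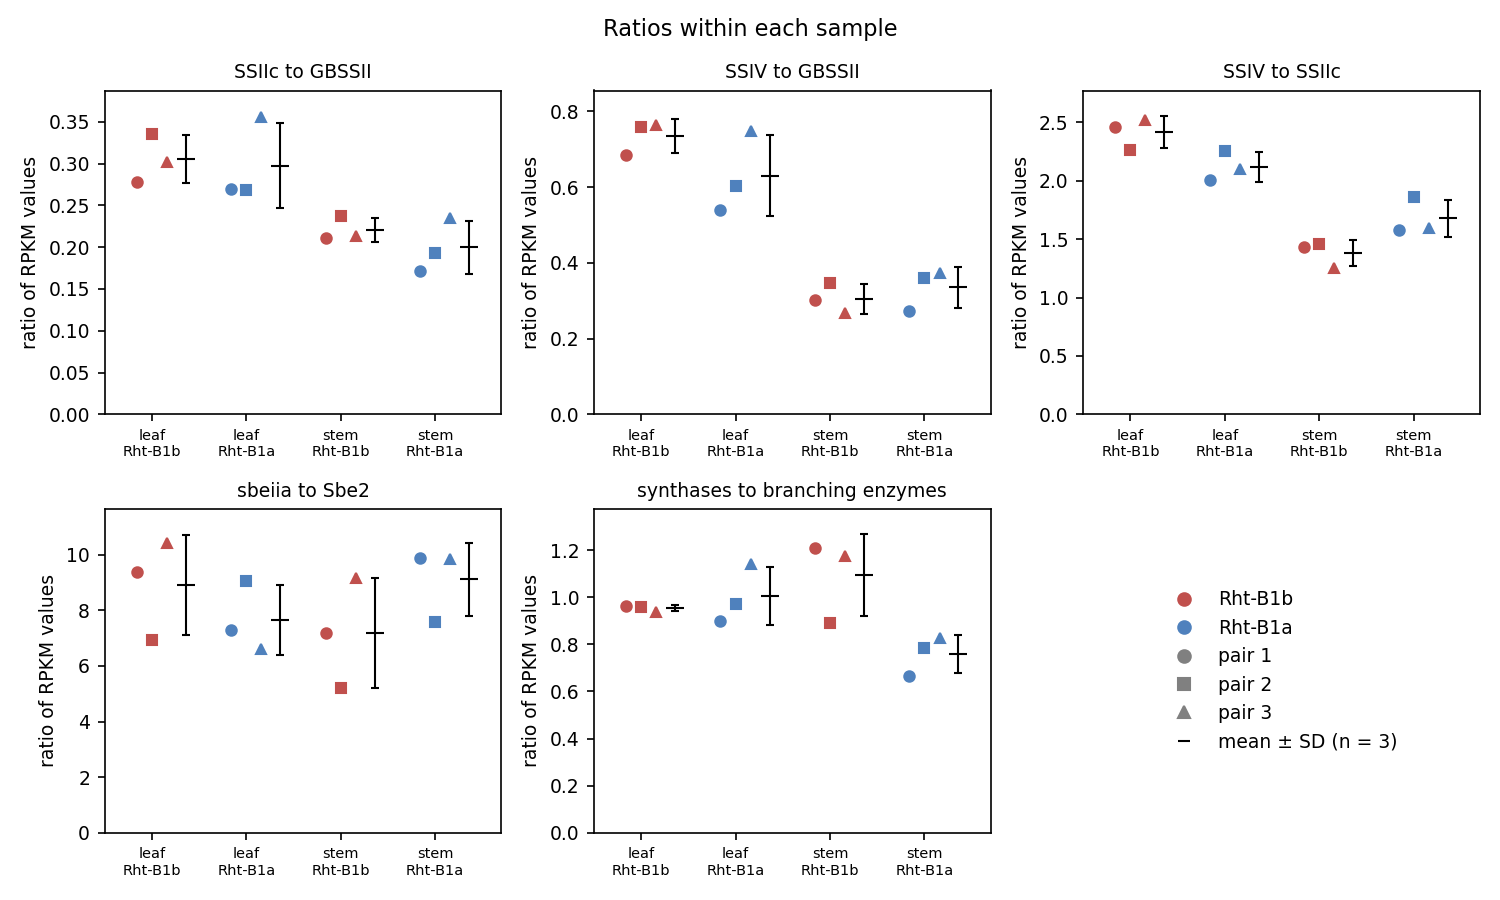
Ratios of RPKM values within each sample for 4 pairs of genes and for the summed synthases over the summed branching enzymes, by tissue and line, with points for samples and bars for the mean ± SD (n = 3). SSIV to SSIIc is below the *Rht-B1a* points in *Rht-B1b* stems and above them in *Rht-B1b* leaves, and leaves lie above stems in the 3 ratios among synthases.

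The proportion of the branching enzymes to each other did not separate the lines. This ratio was one of small whole numbers in 12 of 12 samples, and whether the values of Sbe2 and sbeiia rest on few reads was not tested. The ratio of sbeiia to Sbe2 was 7.18, 5.20 and 9.17 in *Rht-B1b* stems, against 9.88, 7.60 and 9.86 in *Rht-B1a* stems. In leaves it was 9.37, 6.93 and 10.4 in *Rht-B1b*, against 7.30, 9.04 and 6.62 in *Rht-B1a*. The lines overlapped in both tissues, with exact permutation p = 0.2 in stems and 0.4 in leaves (adjusted p = 0.333 and 0.571). The difference of the line effects was -0.58 on the log2 scale (exact permutation p = 0.09, adjusted p = 0.222), and the tissues did not separate (log2 difference 0.038, exact permutation p = 0.88).

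As shares of the 5-gene sum, these ratios appeared as a larger part of GBSSII and a smaller part of sbeiia in semi-dwarf stems. GBSSII made up 34.2% ± 3.78 of the sum in *Rht-B1b* stems and 28.0% ± 0.296 in *Rht-B1a* stems, and sbeiia made up 41.8% ± 2.33 and 51.3% ± 2.79 (SD, n = 3 each). SSIV made up 17.6% ± 0.435 in *Rht-B1b* leaves and 16.3% ± 2.43 in *Rht-B1a* leaves, against 10.3% ± 0.584 in *Rht-B1b* stems and 9.40% ± 1.62 in *Rht-B1a* stems (SD, n = 3 each). The shares themselves were not tested.

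**Figure D4:**
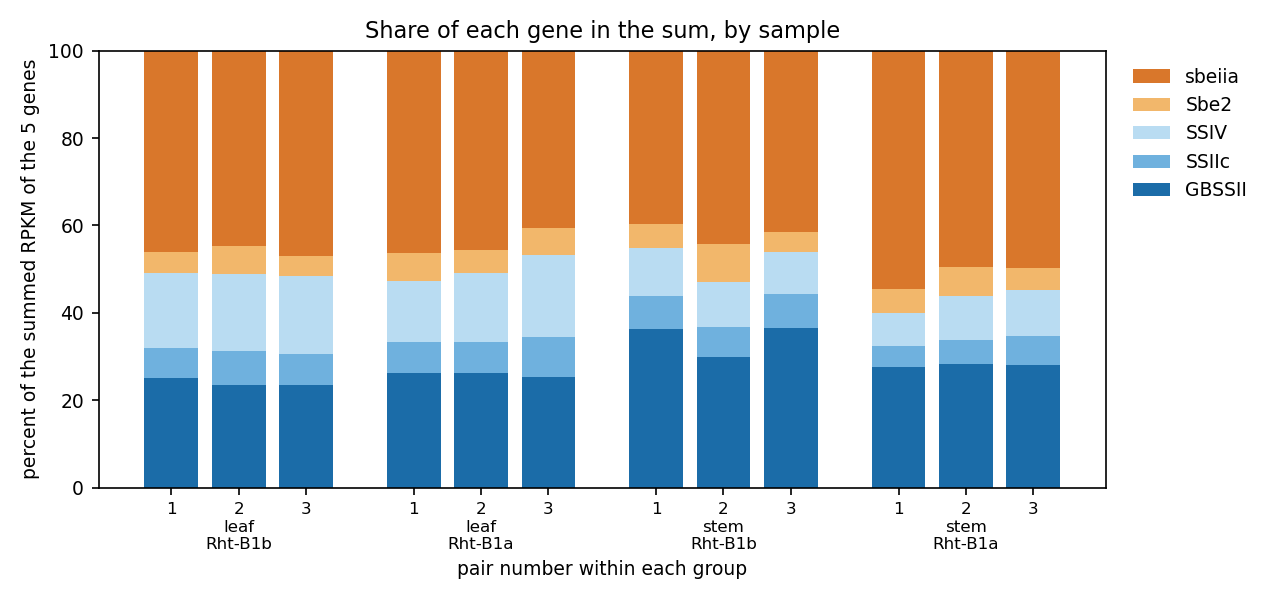
Percent of the summed RPKM of the 5 genes contributed by each gene in every sample, 1 bar per sample, grouped by tissue and line. sbeiia takes 39.7% to 44.3% in *Rht-B1b* stems and 49.6% to 54.5% in *Rht-B1a* stems, and SSIV takes 17.1% or more in *Rht-B1b* leaves and 10.9% or less in stems.

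Across the 12 samples, the pattern of GBSSII was most like that of sbeiia, with a Pearson correlation of log2 levels of 0.79, and 0.95 for deviations from the group means. Sbe2 was also most like sbeiia (0.72, and 0.75 for deviations). SSIIc was most like gid1, which encodes a gibberellin receptor (0.88, and 0.63 for deviations), and SSIV was most like one of the rbcS sequences (0.94, and 0.89 for deviations). Other genes came close to each of these by log2 levels. GBSSII had 0.787 with sbeiia and 0.786 with SSIIc, and Sbe2 had 0.70 with SSIIc. SSIIc had 0.85 with SSIV, and SSIV had 0.92 with each of the other rbcS sequences. By deviations from the group means alone, SSIIc and SSIV were most like each other (0.96) and Sbe2 was most like the sucrose transporter gene SUT2D (0.84). All 12 points share the scaling to actin, and the groups and the high first leaf samples enter each correlation, so these values describe the samples only.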

How the data were processed

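RNA of flag leaves and stems was measured in 12 samples, 3 per line and tissue. With ArrayStar the authors matched reads to chosen wheat gene sequences, requiring 100% identity and 50 bp or more, and deposited RPKM scaled to actin. The version of the program, read counts and a genome build are not given in the sources used here, so depth is unknown and no coordinates or counting intervals are printed. Of 27 lines of the sheet used, 1 is a repeat. The submitters list 24 samples, 2 for each column of values, counted as 1 replicate. Other sheets, and columns that hold the authors' own means and p-values, were not used. None of the 5 members could be matched by name in the RefSeq table, and no sequence is printed.

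Line effects were fitted in R 4.3.3 by limma 3.58.1 within each tissue on log2(RPKM + 1), keeping sample pairs as a block because the study's methods name a paired test. Pairs are not named, and consecutive sample numbers were taken. The difference of line effects was fitted over all 12 samples, each tissue having its own pair blocks, and tissue effects came from the 4 group means with no block. No filter on low values was used. Replicates came from different rows. Ratios were tested by exact permutation over samples in Python 3.11.15. Both procedures were tested on simulated data. The genes named are the 5 members, both ADP-glucose pyrophosphorylase genes, the gene most like each member, and rbcS, SUT1D, Rht-B1 and actin as checks. The members, lists and tests were chosen with earlier results of these data known. The share of all gene pairs meeting each rule was added after the ratios had been seen. Alternatives were other pseudocounts, a filter, other scalings, fits without the block, both tissues in 1 fit, 1 line alone, and leaving out samples.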

Additional observations from a re-analysis of the deposited data

Results flagged for a closer look

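The effect of *Rht-B1b* on SSIIc differed between tissues, by 0.82 on the log2 scale in stems minus leaves (limma adjusted p = 0.0355). Of 8 alternatives 2 kept the call, with values between 0.43 and 0.90. The line effects of the ratio of SSIV to SSIIc lay -0.47 apart on the log2 scale, stem minus leaf (exact permutation p = 0.005, adjusted p = 0.025). That permutation assumed no line effect in either tissue, so it does not test whether the effects are equal. The lines were separate and in opposite directions in stems and leaves, in leaves only by 2.26 against 2.25. Neither line effect passed its own test (exact permutation p = 0.1, adjusted p = 0.222 each). Of 5 alternatives 2 kept the call, and the others left 2 samples per group, which cannot reach the threshold. Both results share the SSIIc values. No sample stood apart by a test, since groups of 3 were not tested for this.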

How the results depend on the processing

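Of 111 alternative counts 88 stayed within 1.5 times the reported one, most of them counts of 0 that stayed 0. The count of members higher in *Rht-B1b* stems, 2 in the main fit, lay between 0 and 4 in the alternatives. Of 473 alternative values for single genes and ratios, 373 kept their direction and side of the threshold. The rest comprised 39 that lost their call, 21 that gained one and 40 that changed sign. Scaled to the geometric mean of 22 genes, 0 members were higher in *Rht-B1b* stems and 0 had different line effects. Of all 25 genes, 3 were then higher and 1 lower in *Rht-B1b* stems. For 2 genes the line effect was higher in stems than in leaves, and for 2 it was lower. With that scaling 1 member was higher and 2 were lower in leaves than stems in each line. Of all 25 genes, 10 were higher and 9 lower in *Rht-B1b* leaves, and 11 and 10 in *Rht-B1a* leaves. Scaled to the median gene, 0 members were higher in *Rht-B1b* stems, 0 had different line effects, and 3 in *Rht-B1b* and 5 in *Rht-B1a* were higher in leaves. Of all 25 genes, 4 were then higher and 1 lower in *Rht-B1b* stems, and 3 had different line effects. In leaves 15 of 25 genes were higher and 6 lower in *Rht-B1b*, and 17 higher and 4 lower in *Rht-B1a*. With a mean of at least 500 RPKM required, which leaves out SSIIc and Sbe2, and SSIV in stems, the counts of members were 1 in stems, 0 for the difference of line effects and 1 higher in *Rht-B1a* leaves. Of all genes kept, 9 of 19 were higher in *Rht-B1b* stems, 3 of 21 had different line effects and 10 of 21 were higher in *Rht-B1a* leaves. Without a pseudocount 3 members were higher in *Rht-B1b* stems, GBSSII among them (adjusted p = 0.0365 from limma), as were 13 of all 25 genes. With both tissues in 1 fit, 4 members were higher in *Rht-B1b* stems, as were 14 of all 25 genes. Without each pair in turn, between 0 and 0 members were called in stems and for the difference of line effects, and between 0 and 0 of 20 ratio tests, where 2 samples per group cannot reach the threshold. Of all 25 genes, between 0 and 5 were called in stems and between 0 and 1 for the difference of line effects. The cause of the other changes was not tested.

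Without the replicate block, 3 members were higher in *Rht-B1b* stems, GBSSII joining with adjusted p = 0.0480 from limma, and 0 had different line effects. Of all 25 genes, 12 were then higher in *Rht-B1b* stems and 2 had different line effects. Deviations from the line means correlated within pairs at -0.36, 0.047 and 0.29 in stems and 0.53, -0.11 and 0.76 in leaves. Between samples of different pair numbers they lay between -0.44 and 0.38 in stems and between -0.78 and 0.35 in leaves. Pairing by number is therefore not apparent in stems. In leaves pairs 1 and 3 were more alike than any mismatched samples, and pair 2 was not. For the line effects of ratios, the exact paired permutation test could not go below p = 0.25 and so could give no call, and it was not run for the other ratio tests.

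Signs changed as follows, on the log2 scale and always without a call unless stated. With the geometric mean, line effects in stems were -0.26 for sbeiia and -0.028 for the pyrophosphorylase small subunit, and in leaves -0.017 for GBSSII and -0.053 for Sbe2, and SSIV had a difference of line effects of -0.037. Leaf minus stem was then -0.36 for SSIIc and -0.19 for sbeiia in *Rht-B1b*, and in *Rht-B1a* -0.50 for GBSSII (called), -0.35 for Sbe2, -0.61 for sbeiia (called) and -0.62 for the small subunit. With the median gene, the line effect was -0.099 for sbeiia in stems, and -0.14 for GBSSII, -0.092 for SSIIc and -0.17 for Sbe2 in leaves, and leaf minus stem was 0.30 for Sbe2 in *Rht-B1b*. With a pseudocount of 100 the leaf line effect of Sbe2 was -0.0010. With 100 RPKM added, the ratio of SSIIc to GBSSII had a stem line effect of -0.028 and a difference of line effects of -0.060, and as geometric means synthases to branching enzymes had a leaf line effect of 0.024. Leaving out 1 pair gave leaf line effects from -0.13 to 0.20 for Sbe2, -0.14 to 0.18 for GBSSII and -0.045 to 0.37 for sbeiia, and differences of line effects from -0.35 to 0.20 for sbeiia. Leaving out 1 sample gave leaf minus stem from -0.11 to 0.26 for SSIIc and -0.28 to 0.080 for Sbe2 in *Rht-B1b*, and -0.11 to 0.52 for sbeiia and -0.21 to 0.74 for the small subunit (the highest called, adjusted p = 0.0222 from limma) in *Rht-B1a*. Leaving out 1 pair gave leaf line effects of ratios from -0.094 to 0.19 for SSIIc to GBSSII, -0.012 to 0.51 for sbeiia to Sbe2 and -0.15 to 0.039 for synthases to branching enzymes, a stem line effect from -0.27 to 0.047 for SSIV to GBSSII, and leaf minus stem from -0.11 to 0.15 for sbeiia to Sbe2.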

Other observations

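The ratio of sbeiia to Sbe2 was a ratio of small whole numbers in 12 of 12 samples, within the rounding of the deposited values of 0.0005 RPKM, a check chosen after seeing the data. The smaller whole number needed lay between 6 and 71 with a median of 26. For the other 9 pairs of members it lay between 35 and 3013 with a median of 470. In *Rht-B1b* stems, for example, the third sample had a ratio of 55 to 6. What these whole numbers count, and so how many reads lie behind the values of Sbe2 and sbeiia, was not tested.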
